A study of Sus scrofa with 23 samples.

Results

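A group of 9 genes of bicarbonate and acid handling in the proximal tubule was examined in kidney cortex: the sodium bicarbonate cotransporters SLC4A4 and SLC4A7, the anion exchanger SLC4A2, the sodium-proton exchangers SLC9A3, SLC9A2 and SLC9A8, and the carbonic anhydrases CA2, CA4 and CA12. They are 9 of the 26687 genes in the data. They were taken from a list of symbols, of which 8 matched the transcript table directly. CA2 had no entry under that symbol, and LOC100154873, whose annotated product is carbonic anhydrase 2, is reported in its place.

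The proximal tubule reclaims most of the filtered bicarbonate. Protons leave the cell across the apical membrane through sodium-proton exchange and a proton pump, and combine in the lumen with bicarbonate to form carbonic acid, which membrane-bound carbonic anhydrase converts to carbon dioxide and water. Inside the cell, cytosolic carbonic anhydrase regenerates bicarbonate, which leaves across the basolateral membrane with sodium.

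Total RNA of kidney cortex from 23 newborn pigs was sequenced after removal of ribosomal RNA. By their labels 11 pigs were CFTR-/- (called CF), 6 were CFTR+/- (HET) and 6 were CFTR+/+ (WT), with 1 library per pig. HET and WT together formed a group of 12 non-CF libraries. Libraries held 32901281 to 52952273 estimated counts. By these totals a limit of 3 counts corresponds to 0.0567 to 0.0912 CPM (counts scaled to library size), counting error only. The CPM of genes given below use library sizes adjusted by TMM scaling. On the first axis of a multidimensional scaling of all libraries, which held 17.2% of the variance, the libraries fell into sets of 13 and 10 that differed in EIF1AY, a gene of the Y chromosome, with 615 to 1215 counts in the first set and 0 to 5 in the second. The first set held 6 of 11 CF, 5 of 6 HET and 2 of 6 WT libraries. With EIF1AY as a covariate for sex, the log2 fold changes of the 9 genes moved by at most 0.00701 for CF against non-CF and 0.08 for HET against WT. Pigs 1 to 6 and 12 to 18 are called the 13 earlier-numbered pigs, and pigs 7 to 11 and 19 to 23 the 10 later-numbered pigs. These blocks follow the pig numbers in the titles. Earlier results of these data had already shown them apart on a scaling axis. Here they were separated on the second axis, which held 10.6% of the variance. The labels name no batch. The earlier-numbered pigs were 6 CF, 3 HET and 4 WT, and the later-numbered pigs 5 CF, 3 HET and 2 WT. The later-numbered HET libraries were all in the set with high EIF1AY, and the later-numbered WT libraries all in the other set. The non-CF group thus had a different mix of HET and WT in each block.

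CFTR (gene 403154, chr18:28627717-28818209 on Sscrofa11.1), the disrupted gene, ranged from 1.27 to 3.70 CPM with a median of 2.25 in WT, from 9.47 to 17.6 CPM with a median of 12.04 in HET and from 12.5 to 23.6 CPM with a median of 20.9 in CF. Its RNA was lowest in every WT library and was not lost in the libraries labelled CF, so the groups are named by their labels and a direction drawn from them rests on those labels.

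The labelled tissue was checked against marker genes of its cell types, whose summed levels are in TPM (abundance scaled for transcript length and library size). All 10 proximal tubule markers were present, with a summed level of 2472 ± 409.5 in CF and 2426 ± 445 in non-CF (SD, n = 11 and 12, as for the sums that follow). The summed levels were 460.0 ± 71.8 in CF and 471 ± 52.1 in non-CF for 5 markers of the thick ascending limb, led by UMOD. They were 176 ± 63.6 in CF and 194 ± 36.6 in non-CF for 6 markers of principal cells, led by AQP2, and 139 ± 26.4 in CF and 121 ± 19.7 in non-CF for 7 markers of intercalated cells, led by ATP6V1B1. ATP6V1B1 held 62.1% of the intercalated sum. Of those 7 markers, 3 were higher and 4 lower in CF than in non-CF (median log2 fold change -0.04). The tissue thus held RNA of later segments in which several of the 9 genes are also known to be active. Markers of podocytes (4 genes) summed to 263 ± 58.2 in CF and 257 ± 42.1 in non-CF, of endothelium (5, led by PECAM1) to 149 ± 13.4 in CF and 163 ± 19.3 in non-CF, and of stroma (5, led by COL1A2) to 641 ± 122 in CF and 681 ± 216 in non-CF. Markers of nephron progenitors (4, led by MEOX1) summed to 6.81 ± 1.89 in CF and 6.48 ± 1.19 in non-CF, of immune cells (5, led by CD163) to 30.9 ± 8.69 in CF and 30.04 ± 5.47 in non-CF, and of erythroid cells (8, led by HBB, which held 96.01% of the sum) to 386 ± 234 in CF and 369 ± 117 in non-CF. Of 7 erythroid markers tested, 2 were higher and 5 lower in CF than in non-CF (median log2 fold change -0.12). The highest erythroid sum, 1042 TPM, was in CF replicate 1. No marker list had a gene at 0 in all libraries. The proximal tubule sum was 2193 ± 304 in the earlier-numbered pigs (SD, n = 13) and 2779.5 ± 301 in the later-numbered ones (SD, n = 10). The 4 distal convoluted tubule markers summed to 192 ± 46.6 in CF and 397 ± 175 in non-CF. In the earlier-numbered pigs this sum was 199 ± 57.6 in CF and 292 ± 106 in non-CF (SD, n = 6 and 7), and in the later-numbered pigs 183 ± 33.2 and 545 ± 146 (SD, n = 5 each). The 3 earlier-numbered HET libraries lay within the CF range, and the other non-CF libraries lay above it. CALB1 held 60.3% of the sum over all libraries. Its log2 fold change for CF against non-CF was -1.40 (edgeR's adjusted p = 0.0636), beside -0.64 (edgeR's adjusted p = 0.0843) for SLC12A3, -0.12 (edgeR's adjusted p = 0.588) for TRPM6 and 0.30 (edgeR's adjusted p = 0.175) for KLHL3. The part of these markers in the values of the 9 genes was not tested.

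Levels of the 9 genes were compared with each other in TPM, which accounts for transcript length. SLC4A4 was the most abundant at 141 ± 26.9 TPM (SD, n = 23), above CA12 in 23 of 23 libraries. CA12 at 96.2 ± 19.3 TPM was above LOC100154873 at 78.7 ± 16.7 TPM in 18 of 23, but in only 2 of 6 WT libraries. The mean ± SD ranges of neighbours among these 3 genes overlapped, and those of LOC100154873 and the next gene did not. SLC9A3 at 33.6 ± 5.37 TPM, SLC4A2 at 28.5 ± 3.10 and CA4 at 24.9 ± 6.47 came next, and the ranges of neighbours among them overlapped. SLC9A2 followed at 11.98 ± 2.19 TPM, below the range of CA4 and above that of SLC4A7. SLC4A7 at 6.91 ± 1.21 and SLC9A8 at 6.40 ± 1.06 TPM had overlapping ranges. In CPM per kilobase of the longest transcript, 7 of the 9 genes held the same place, and CA12 came before SLC4A4.

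The main question was whether these genes differ with the CFTR genotype label. For CF against non-CF, 0 of the 9 genes passed edgeR's adjusted p, against 73 of 20921 genes tested (0.349%). At an unadjusted p under 0.05 there were 4 of 9, beside 13.7% of all genes, and DESeq2 called 2 of 9, beside 2.46%. The median log2 fold change of the 9 genes was -0.05, beside -5.17e-04 for all genes tested, and all 9 confidence intervals lay within 1 on the log2 scale in either direction. For CF against WT 0 of 9 passed by edgeR, beside 0.349% of all genes. At an unadjusted p under 0.05 there were 2 of 9, beside 14.1%, and DESeq2 called 0, beside 2.75%. For HET against WT 0 of 9 passed by edgeR, beside 0.00478% of all genes, with 0 of 9 at an unadjusted p under 0.05, beside 7.99%, and 0 by DESeq2, beside 0.158%. For CF against HET 0 of 9 passed by edgeR, beside 0% of all genes. At an unadjusted p under 0.05 there were 4 of 9, beside 9.89%, and DESeq2 called 1 (SLC4A7), beside 0.311%. These comparisons share libraries and are given side by side only. In bulk tissue, fewer cells of a type and less RNA per cell cannot be told apart.

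**Figure D1:**
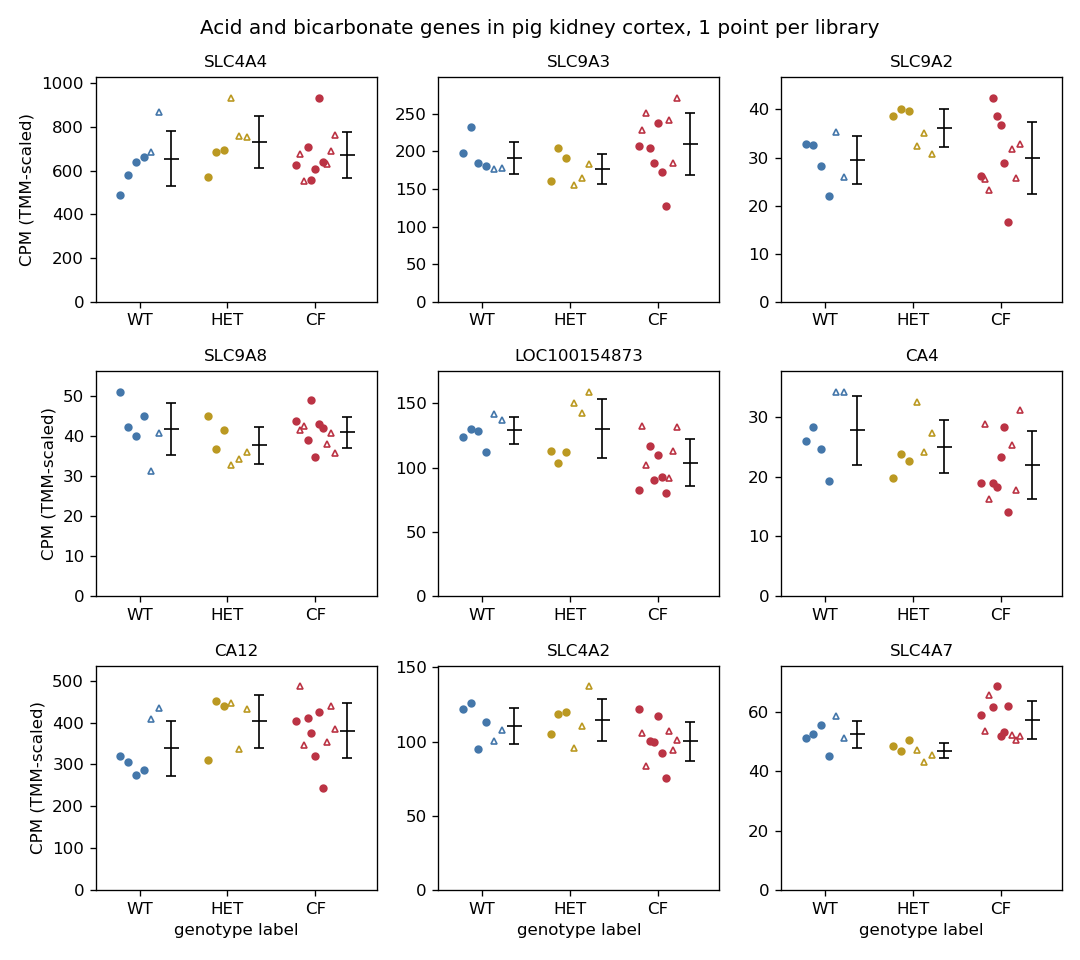
CPM of the 9 genes in each library by genotype label (y axis from 0, CPM after TMM scaling). Filled circles are earlier-numbered pigs, open triangles are later-numbered pigs, and black bars are mean ± SD; the CF, HET and WT points overlap in every panel except SLC4A7, where the CF points lie above the HET points.

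SLC9A3 (gene 397358, chr16:79625555-79704084) encodes NHE3, the main apical sodium-proton exchanger of the proximal tubule. It ranged from 177 to 232 CPM with a median of 183 in WT, from 155 to 205 CPM with a median of 174 in HET and from 128 to 272 CPM with a median of 207 in CF. The CF libraries had the widest range, with 4 above and 1 below all non-CF libraries. The log2 fold change for CF against non-CF was 0.19 (edgeR's adjusted p = 0.377, SE 0.0949, 95% confidence interval -0.00375 to 0.39), above the non-CF median in 9 of 11 CF libraries.

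Within the number blocks, whose non-CF libraries differ in their mix of HET and WT, the SLC9A3 values were as follows. In the later-numbered pigs SLC9A3 was 235 ± 32.4 CPM (SD, n = 5) in CF and 172 ± 11.3 CPM (SD, n = 5) in non-CF, and all 5 CF libraries lay above all 5 non-CF libraries. Groups that did not overlap in this block were seen for 2 of the 9 genes and for 4.65% of genes tested. The log2 fold change there was 0.46 (edgeR's adjusted p = 0.0314, SE 0.101, 95% confidence interval 0.24 to 0.68), the single member of the 9 that passed in a block where 2.27% of genes did. In the earlier-numbered pigs the levels were 189 ± 37.2 CPM (SD, n = 6) in CF and 193 ± 22.4 CPM (SD, n = 7) in non-CF, and the log2 fold change was -0.02 (edgeR's adjusted p = 0.971, SE 0.120). The difference between the blocks was 0.48 (SE 0.169, unadjusted p = 0.00887, edgeR's adjusted p = 0.306), so it did not pass. For this difference, 0 of 9 genes passed the adjusted p (0.0191% of all genes) and 2 of 9 had an unadjusted p under 0.05 (10.1% of all genes).

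Several marker sums also differed between CF and non-CF in the later-numbered pigs. Besides the distal convoluted tubule sum given above, the summed level of principal cell markers there was 134 ± 23.5 in CF and 183 ± 28.2 in non-CF (TPM, SD, n = 5 each, as for the sums that follow). Endothelium markers summed to 142 ± 15.5 in CF and 166 ± 18.3 in non-CF, and immune markers to 26.6 ± 3.96 in CF and 32.3 ± 2.94 in non-CF. These 4 sums were lower in CF by more than the larger of both SDs, while the proximal tubule sum was 2787 ± 255 in CF and 2772 ± 372 in non-CF. In the earlier-numbered pigs (n = 6 and 7) the principal cell sum was 211 ± 66.3 in CF and 202 ± 41.8 in non-CF, the endothelium sum 156 ± 7.84 in CF and 161 ± 21.02 in non-CF and the immune sum 34.5 ± 10.2 in CF and 28.4 ± 6.44 in non-CF, differences within the larger SD. Directions of single markers in 1 block are not given here. Over all libraries, principal cell markers were 3 higher and 3 lower in CF than in non-CF. Endothelium markers were 3 higher and 2 lower. Of 4 immune markers tested, 1 was higher and 3 lower, and CD163 held 55.7% of the immune sum. The part of these markers in the values of SLC9A3 and the other genes in the later block was not tested.

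SLC9A2 (gene 100101921, chr3:51535798-51623003) encodes NHE2, an apical exchanger better known from later segments. It ranged from 21.96 to 35.4 CPM with a median of 30.5 in WT, from 30.6 to 40.03 CPM with a median of 36.9 in HET and from 16.6 to 42.5 CPM with a median of 28.9 in CF, and the groups overlapped. Its log2 fold change for CF against non-CF was -0.14 (edgeR's adjusted p = 0.692, SE 0.123, 95% confidence interval -0.39 to 0.12). SLC9A8 (gene 102158489, chr17:51401061-51477276) encodes NHE8, an exchanger known from the immature proximal tubule. It ranged from 31.2 to 51.01 CPM with a median of 41.4 in WT, from 32.8 to 44.9 CPM with a median of 36.4 in HET and from 34.7 to 48.8 CPM with a median of 41.6 in CF. No CF library lay outside the non-CF range, and the log2 fold change was 0.04 (edgeR's adjusted p = 0.861, SE 0.0728, 95% confidence interval -0.11 to 0.19). By number block it was 41.8 ± 4.74 CPM (SD, n = 6) in CF and 43.03 ± 4.50 CPM (SD, n = 7) in non-CF of the earlier-numbered pigs, and 39.7 ± 2.75 CPM (SD, n = 5) and 34.97 ± 3.66 CPM (SD, n = 5) in the later-numbered ones. The split of its counts among transcripts was unstable, since the non-coding transcript XR_002340027.1 took from 0.115% to 88.5% of the counts, so its level is given as the sum over transcripts.

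SLC4A4 (gene 503546, chr8:67768955-68177213) encodes NBCe1, the basolateral sodium bicarbonate cotransporter. It ranged from 490.4 to 869 CPM with a median of 653 in WT, from 572 to 935 CPM with a median of 725 in HET and from 553 to 934 CPM with a median of 641 in CF. No CF library lay outside the non-CF range, and the log2 fold change for CF against non-CF was -0.05 (edgeR's adjusted p = 0.892, SE 0.0983, 95% confidence interval -0.25 to 0.15). By number block the level was 679 ± 134 CPM (SD, n = 6) in CF and 618 ± 73.6 CPM (SD, n = 7) in non-CF of the earlier-numbered pigs, and 664 ± 78.5 CPM (SD, n = 5) and 801 ± 99.5 CPM (SD, n = 5) in the later-numbered ones. The log2 fold change in later-numbered pigs was -0.27 (edgeR's adjusted p = 0.212) and in earlier-numbered pigs 0.14 (edgeR's adjusted p = 0.772), a difference of -0.41 (unadjusted p = 0.0222, edgeR's adjusted p = 0.385).

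The annotation lists 10 transcripts of SLC4A4, and kallisto's estimates divided the counts mainly between a pair of them that start at different exons. NM_001030533.1 begins at an internal first exon and encodes 1035 residues, the form known from kidney. XM_021100504.1 begins upstream and encodes 1079 residues. On average they held 37.3% and 50.4% of the gene's estimated counts. In TPM, which divides by length, the order was reversed, at 56.8% and 34.1%. The transcripts of this pair differ in where they start and in where they end. The coding starts are read from Sscrofa11.1 on the plus strand, with the start codon in capitals, at chr8:67968252-67968311 and chr8:67877253-67877312:
NM_001030533.1: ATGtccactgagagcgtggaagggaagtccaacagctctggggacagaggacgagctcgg
XM_021100504.1: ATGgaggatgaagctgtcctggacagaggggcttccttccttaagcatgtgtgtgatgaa

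The share of XM_021100504.1 ranged from 33.3% to 54.1% with a median of 48.2% in WT, from 43.9% to 50.9% with a median of 47.4% in HET and from 45.6% to 59.3% with a median of 56.1% in CF. Most CF libraries lay above the HET range, and the CF range overlapped with both others. The mean was 54.4% ± 4.0 (SD, n = 11) in CF and 46.8% ± 5.39 (SD, n = 12) in non-CF, a difference of 7.58 percentage points (permutation test, two-sided, unadjusted p = 8.60e-04, 1 of 6 genes with several transcripts that were tested). With TPM shares the difference was 5.99 points (permutation p = 0.00140). With each library left out it lay between 6.35 and 8.45 points. Within the number blocks it was 10.4 points in earlier-numbered pigs (exact permutation p = 0.00699, n = 6 and 7) and 3.85 in later-numbered pigs (exact permutation p = 0.0714, n = 5 and 5), so it did not pass in the later block. The share of NM_001030533.1 was 35.9% ± 2.37 in CF and 38.5% ± 2.56 in non-CF. XM_021100506.1, which has the same coding start as XM_021100504.1, held 1.93% ± 1.92 in CF and 4.99% ± 3.20 in non-CF, and XM_013989320.2, which has another coding start and ends at base 68177213, held 5.55% ± 1.02 in CF and 7.39% ± 2.29 in non-CF. The larger CF share of XM_021100504.1 was thus set against smaller shares of several transcripts, and the shares of these other transcripts were not tested. Summed over the 5 transcripts with the coding start of XM_021100504.1, the share was 58.2% ± 2.35 in CF (SD, n = 11), 54.2% ± 1.99 in HET and 53.1% ± 3.28 in WT (SD, n = 6 each). This sum was not tested. The last exon of XM_021100504.1 extends to base 68177212, beyond the end of NM_001030533.1 at 68173050, so reads there count only for transcripts with the longer end. The shares are therefore estimates in which the start and the end of the transcript cannot be told apart. The shares of the leading transcripts of the 5 other genes did not pass (unadjusted permutation p over all libraries from 0.0870 to 0.981). Within the blocks, the share of XR_002340027.1 of SLC9A8 differed by 33.1 points in earlier-numbered pigs (unadjusted exact permutation p = 0.0268, n = 6 and 7) and by -20.2 points in later-numbered pigs (unadjusted exact permutation p = 0.294, n = 5 and 5).

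LOC100154873 (CA2; chr4:51194686-51211436) encodes the cytosolic carbonic anhydrase 2, known also from intercalated and red blood cells. It ranged from 112 to 142 CPM with a median of 129 in WT, from 104 to 159 CPM with a median of 128 in HET and from 80.3 to 133 CPM with a median of 102 in CF. Of the 11 CF libraries, 6 lay below every non-CF library, and the remaining ones overlapped with them. The log2 fold change was -0.32 (edgeR's adjusted p = 0.0941, SE 0.0897, 95% confidence interval -0.50 to -0.14), the lowest value of the 9 genes, and it was below the non-CF median in 9 of 11 libraries. It was -0.31 (edgeR's adjusted p = 0.184, SE 0.110) against WT and -0.33 (edgeR's adjusted p = 0.352, SE 0.110) against HET, and 0.02 (edgeR's adjusted p = 0.982, SE 0.126) for HET against WT. With the number block as a term it passed for CF against non-CF at edgeR's adjusted p = 0.0311 (log2 fold change -0.33), in a fit where 0.707% of genes passed, and with DESeq2 at 0.0336. Against WT it also passed with the block (log2 fold change -0.35, edgeR's adjusted p = 0.0472), where 186 genes passed. Over all settings other than left-out libraries its adjusted p for CF against non-CF lay between 0.0311 and 0.324.

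LOC100154873, like the marker sums of the proximal tubule, of intercalated cells and of some other lists, had higher means in the later-numbered pigs. It was 95.4 ± 14.7 CPM (SD, n = 6) in CF and 118 ± 9.85 CPM (SD, n = 7) in non-CF of the earlier-numbered pigs, and 114 ± 17.95 CPM (SD, n = 5) and 146 ± 8.60 CPM (SD, n = 5) in the later-numbered ones. The later-numbered CF and non-CF libraries did not overlap. The log2 fold change was -0.30 (edgeR's adjusted p = 0.324) in the earlier and -0.36 (edgeR's adjusted p = 0.0860) in the later block. The erythroid and intercalated marker sums given above differed between CF and non-CF by less than 1 SD over all libraries. The intercalated sum was 117 ± 20.4 TPM in all earlier-numbered pigs (SD, n = 13) and 146 ± 19.7 in all later-numbered ones (SD, n = 10). The sums of principal cells, endothelium, stroma, immune and erythroid cells were not higher in the later-numbered pigs. In the later-numbered pigs the intercalated sum was 155 ± 19.8 in CF and 137 ± 16.8 in non-CF and the erythroid sum 367 ± 102 in CF and 388 ± 106 in non-CF (TPM, SD, n = 5 each). The part in this result of these markers, and of the lists that were lower in CF in that block, was not tested.

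CA4 (gene 100511956, chr12:37962951-37972443) encodes the membrane-anchored carbonic anhydrase of the brush border, known also from endothelium. It ranged from 19.3 to 34.3 CPM with a median of 27.1 in WT, from 19.8 to 32.6 CPM with a median of 23.96 in HET and from 14.2 to 31.1 CPM with a median of 19.03 in CF. As for LOC100154873, 6 CF libraries lay below all non-CF libraries, and the log2 fold change was -0.27 (edgeR's adjusted p = 0.361, SE 0.129, 95% confidence interval -0.53 to -0.00165). By number block CA4 was 20.3 ± 4.90 CPM (SD, n = 6) in CF and 23.5 ± 3.23 CPM (SD, n = 7) in non-CF of the earlier-numbered pigs, and 23.9 ± 6.66 CPM (SD, n = 5) and 30.5 ± 4.56 CPM (SD, n = 5) in the later-numbered ones. CA12 (gene 100152749, chr1:108649277-108710658), a membrane carbonic anhydrase known also from later segments, ranged from 274 to 434 CPM with a median of 314 in WT, from 309.9 to 452 CPM with a median of 435 in HET and from 243 to 488 CPM with a median of 385 in CF. Its groups overlapped, and the log2 fold change was 0.04 (edgeR's adjusted p = 0.928, SE 0.108, 95% confidence interval -0.18 to 0.26).

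SLC4A2 (gene 397203, chr18:6149459-6166622) encodes AE2, a chloride-bicarbonate exchanger. It ranged from 95.1 to 126 CPM with a median of 110.4 in WT, from 95.5 to 137 CPM with a median of 115 in HET and from 75.8 to 122 CPM with a median of 100.4 in CF. In CF 4 libraries lay below all non-CF libraries, and the log2 fold change was -0.17 (edgeR's adjusted p = 0.305, SE 0.0746, 95% confidence interval -0.32 to -0.02), below the non-CF median in 9 of 11. Its transcripts XM_021078860.1 and XM_021078859.1 held 51.5% ± 7.32 and 30.7% ± 6.02 of the counts (SD, n = 23) and begin translation at different exons.

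SLC4A7 (gene 100524044, chr13:13933552-14043108) encodes NBCn1, an electroneutral sodium bicarbonate cotransporter known from later segments. It ranged from 45.3 to 58.8 CPM with a median of 52.1 in WT, from 43.1 to 50.5 CPM with a median of 47.1 in HET and from 50.6 to 68.8 CPM with a median of 53.6 in CF. Each CF library lay above the non-CF median, 5 lay above all non-CF libraries, and all 11 lay above all 6 HET libraries. Groups of CF and HET that did not overlap were seen for 1 of the 9 genes and 0.0717% of all genes tested. In TPM they did overlap, with the lowest CF library at 5.81 and the highest HET library at 6.51 TPM. The log2 fold change was 0.20 (edgeR's adjusted p = 0.119, SE 0.0621, 95% confidence interval 0.08 to 0.33) for CF against non-CF, 0.29 (edgeR's adjusted p = 0.209, SE 0.0723) against HET and 0.13 (edgeR's adjusted p = 0.443, SE 0.0719) against WT. With DESeq2 the adjusted p for CF against non-CF was 0.0487, and over all settings other than left-out libraries it lay between 0.0487 and 0.576.

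**Figure D2:**
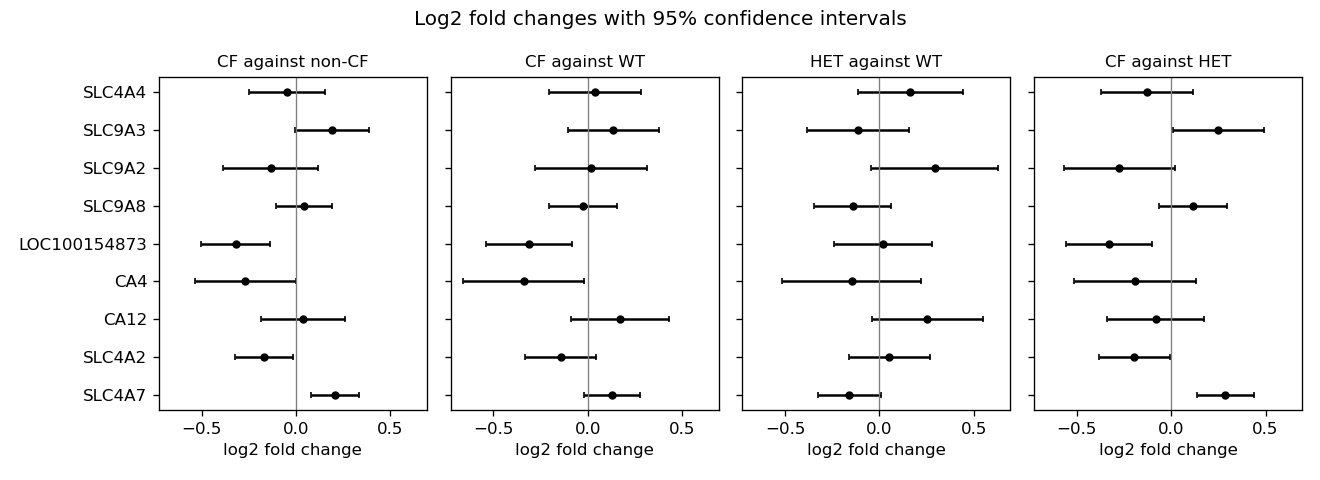
Log2 fold changes of the 9 genes with 95% confidence intervals (x axis, log2 scale) in 4 comparisons that share libraries. The intervals of LOC100154873, CA4, SLC4A2 and SLC4A7 exclude 0 for CF against non-CF before adjustment, and 0 of 9 genes passed the adjusted p in any panel.

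Other genes of the pathway came from 6 lists, and 0 of the genes tested passed edgeR's adjusted p in any of the 4 comparisons. An unadjusted p under 0.05 for CF against non-CF, counted for each list, was seen for 13.7% of all genes tested. Among those named here, DESeq2 called CHP1 (adjusted p = 0.0422) and SLC4A11 (adjusted p = 0.0362) for CF against non-CF. The genes named from these lists had the smallest p for CF against non-CF, a comparison that holds the later-numbered pigs, so their values in that block are a description. Those with an adjusted p under 0.05 there had log2 fold changes of 0.86 (edgeR's adjusted p = 0.00145) for SLC4A11, -0.57 (edgeR's adjusted p = 0.00505) for CHP1, 0.44 (edgeR's adjusted p = 0.0239) for SLC4A3 and 0.36 (edgeR's adjusted p = 0.0455) for PTH1R. In that block 2.27% of all genes passed. Over all settings other than left-out libraries, SLC4A11 lay between 0.02 and 0.86 and CHP1 between -0.57 and -0.19. PTH1R lay between 0.05 and 0.36, and SLC4A3 between -0.16 in earlier-numbered pigs (edgeR's adjusted p = 0.749) and 0.44. Of 14 partners and regulators of NHE3, all were tested, with 8 higher and 6 lower in CF than in non-CF, 3 at an unadjusted p under 0.05 and a median log2 fold change of 0.05. CHP1, a calcineurin B homologous protein that binds the exchanger, was at 24.3 ± 2.69 TPM (SD, n = 11) against 32.3 ± 6.78 (SD, n = 12), a log2 fold change of -0.36 (edgeR's adjusted p = 0.111). PTH1R, the parathyroid hormone receptor, had 0.19 (edgeR's adjusted p = 0.263) and PPP3CA, a catalytic subunit of calcineurin, 0.13 (edgeR's adjusted p = 0.339). Of 11 regulators and basolateral partners of NBCe1, 1 at an unadjusted p under 0.05, the median was -0.04. KCNK5, a potassium channel of the proximal tubule, was at 37.2 ± 7.77 TPM (SD, n = 11) against 29.2 ± 9.57 (SD, n = 12), with a log2 fold change of 0.37 (edgeR's adjusted p = 0.320) and 0.74 (edgeR's adjusted p = 0.0559) against WT. The proton-sensing receptor GPR4 had -0.15 (edgeR's adjusted p = 0.420), and ATP1B1, a subunit of the sodium pump, -0.16 (edgeR's adjusted p = 0.464).

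Among the same gene families, 6 of 7 other SLC4 genes were tested, 1 at an unadjusted p under 0.05, with a median log2 fold change of -0.03. SLC4A11 had 0.43 (edgeR's adjusted p = 0.110), SLC4A3 0.13 (edgeR's adjusted p = 0.644) and SLC4A5 -0.23 (edgeR's adjusted p = 0.565). Of 9 other SLC9 genes 8 were tested (0 at an unadjusted p under 0.05, median 0.01), with -0.12 (edgeR's adjusted p = 0.451) for SLC9A9 and 0.21 (edgeR's adjusted p = 0.634) for SLC9A4. Of 12 other carbonic anhydrase genes 10 were tested (0 at an unadjusted p under 0.05, median -0.00310), with -0.16 (edgeR's adjusted p = 0.481) for CA9, -0.06 (edgeR's adjusted p = 0.745) for LOC100152714, annotated as carbonic anhydrase 13, and -0.12 (edgeR's adjusted p = 0.900) for CA3. CA3 lay between -0.49 in later-numbered and 0.12 in earlier-numbered pigs, and within -0.29 to -0.04 with 1 library left out. CA6 had 0 counts in all libraries. Of 15 subunits of the V-type proton pump, the other route of apical proton secretion, 4 were higher and 11 lower in CF (1 at an unadjusted p under 0.05, median -0.01), with -0.22 (edgeR's adjusted p = 0.297) for ATP6V1F, -0.16 (edgeR's adjusted p = 0.393) for ATP6V1A and 0.17 (edgeR's adjusted p = 0.538) for ATP6V0A1. Of the 15, 10 were higher in CF than in WT (median 0.05), 14 were higher in HET than in WT (median 0.13) and 14 were lower in CF than in HET (median -0.11), comparisons that share libraries. Of all genes tested, 50.2% were lower in CF than in non-CF, 49.6% higher in CF than in WT, 48.8% higher in HET than in WT and 48.6% lower in CF than in HET. The medians over all genes were -5.17e-04 for CF against non-CF, -0.00159 for CF against WT, -0.00455 for HET against WT and 0.00528 for CF against HET.

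Across the 23 libraries, which share genotype groups and number blocks, the 36 pairs of the 9 genes had a median Pearson r of 0.155 in log2 CPM, with 3 pairs above 0.5 and 4 below -0.5. The highest was LOC100154873 with CA4 (r = 0.687, rho = 0.675) and the lowest SLC4A4 with SLC9A8 (r = -0.547, rho = -0.605). Among all genes tested, the patterns most like SLC4A4 were RCBTB1 (r = 0.859, rho = 0.819), ENPEP (r = 0.856, rho = 0.834) and BST1 (r = 0.820, rho = 0.818). For SLC9A3 they were SYT7 (r = 0.797, rho = 0.760), CAMKK2 (r = 0.793, rho = 0.842) and PKNOX2 (r = 0.784, rho = 0.751). SLC9A2 was most like the glycolytic genes GPI (r = 0.875, rho = 0.858), ALDOA (r = 0.855, rho = 0.816) and TPI1 (r = 0.833, rho = 0.796). SLC9A8 was most like KIFC2 (r = 0.850, rho = 0.838), CIART (r = 0.804, rho = 0.769) and FAM50B (r = 0.804, rho = 0.758). For LOC100154873 they were APOO (r = 0.821, rho = 0.797), SLC23A1 (r = 0.803, rho = 0.795) and CKMT2 (r = 0.787, rho = 0.755). CA4 was most like LOC100625498 (r = 0.730, rho = 0.647), NSMCE4A (r = 0.722, rho = 0.684) and SLC35F2 (r = 0.707, rho = 0.622), and CA12 most like SLC13A3 (r = 0.861, rho = 0.853), BCL2L13 (r = 0.799, rho = 0.727) and OCSTAMP (r = 0.769, rho = 0.723). SLC4A2 had the closest matches, with TBC1D24 (r = 0.918, rho = 0.885), NEURL4 (r = 0.913, rho = 0.888) and CABIN1 (r = 0.912, rho = 0.897), and SLC4A7 was most like FLRT3 (r = 0.718, rho = 0.748), ZC3H6 (r = 0.680, rho = 0.605) and NXPH1 (r = 0.673, rho = 0.542). These are descriptions over 23 libraries with no test.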

How the data were processed

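The authors pseudoaligned reads to RefSeq transcripts of Sscrofa11.1 with kallisto and deposited, for 77689 transcripts in each of 23 libraries, estimated counts that were not normalized. The authors also deposited TPM, which are those estimates per effective length, scaled to a constant sum. The strand setting is not given in the sources used here.

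Estimated counts were summed per gene and rounded, since 63.98% of transcript values were not whole (tolerance 1e-09). edgeR 4.0.16 in R 4.3.3 was run with TMM, filterByExpr and the quasi-likelihood test, two-sided, with Benjamini-Hochberg adjustment over 20921 genes and a limit of 0.05. CF was fitted against non-CF, and the 3 labels in a second fit of all libraries. Both used the genes that pass the filter for CF and non-CF. The second fit was first run with a filter on the 3 labels and was changed after its counts had been seen, so that every comparison covers one gene set; the first filter is kept as an alternative. Transcript shares used permutation tests with 100000 resamples in scipy 1.17.1. Python 3.11.15, numpy 2.4.6, pandas 2.3.3, pysam 0.24.0 and matplotlib 3.10.9 were used, and log2 CPM had a prior count of 2. Alternatives included DESeq2 1.42.0, limma 3.58.1 and an exact Mann-Whitney test. The fits were tested on simulated data, with no outcome reported here, so no result rests on it.

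The members, the lists and the number blocks were chosen with earlier results of these data known. Named genes were CFTR, the 9 genes, in each pathway list those passing an adjusted p or otherwise the 3 with the smallest p for CF against non-CF, the most abundant marker of each cell type, and the 3 most correlated genes of each member. Single values of a few genes that this rule names are not reported here. LOC100154873 was matched by product after the data were seen, as were LOC100153915 (carbonic anhydrase 1), LOC100152714 and LOC100521447 (SGK3).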

Additional observations from a re-analysis of the deposited data

Results flagged for a closer look

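The difference of the CF effect between later-numbered and earlier-numbered pigs had an unadjusted p under 0.05 for 2 of the 9 genes. For SLC9A3 the log2 fold change was higher by 0.48 in the later-numbered pigs (unadjusted p = 0.00887, edgeR's adjusted p = 0.306), and for SLC4A4 the difference was -0.41 (unadjusted p = 0.0222, edgeR's adjusted p = 0.385). Neither passed the adjusted p, and 10.1% of all genes tested had an unadjusted p under 0.05. Libraries were also examined for a highest or lowest value whose gap to its neighbour was above 0.625 of the whole range of its group (Dixon's limit for 6 libraries). This was done in HET and WT for the CPM and TPM of the 9 genes and CFTR and for the shares of 6 leading transcripts, 51 groups of varying values in all, and chance marks about 1 in 20 of them. In CPM no value was beyond the limit. In TPM, HET replicate 19 was at 208 TPM (ratio 0.631; the other 5 libraries 118 to 151 TPM) for SLC4A4 and at 36.7 TPM (ratio 0.676; the other 5 libraries 19.4 to 25.00 TPM) for CA4. The XM_021077063.1 share of SLC9A3 was 99.2% (ratio 0.628; the other 5 libraries 99.7% or more) in HET replicate 15, and the XM_021078860.1 share of SLC4A2 was 67.3% (ratio 0.693; the other 5 libraries 52.1 to 56.8%) in WT replicate 22. The CF group, with 11 libraries, was not examined this way. What differed between the number blocks other than the pig numbers was not tested.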

How the results depend on the processing

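Of 351 log2 fold changes of the 9 genes under alternatives other than left-out libraries, 335 kept their direction and their side of the limit, 6 newly passed and 10 changed sign; with each library left out, 813 of 828 kept both, 15 changed sign and 0 newly passed. The counts of all genes called depended strongly on the method. For CF against non-CF (73) they were 515 with DESeq2, 46 with limma-voom, 46 with the exact Mann-Whitney test (63 genes with tied values, for which it is not corrected), 148 with the number block as a term, 45 with EIF1AY as a covariate, 0 in earlier-numbered and 473 in later-numbered pigs alone, and 17 to 203 with each library left out (lowest without HET replicate 21, highest without CF replicate 4). For CF against WT (73) they were 139 with upper-quartile normalization, 576 with DESeq2, 186 with the block and 20 to 203 with a library left out (WT replicate 12 and CF replicate 4). For HET against WT (1) DESeq2 gave 33, and left-out libraries 1 to 4. For CF against HET (0) counts were 4 with median-of-ratios and 4 with upper-quartile normalization, 65 with DESeq2, 1 with no filter, 5 with the block, 1 with EIF1AY, and 0 to 3 with a library left out. The filter on 3 labels, used first and made an alternative after seeing the data, gave 72, 1 and 0 for CF against WT, HET against WT and CF against HET. The count of the 9 genes called went from 0 to 2 with DESeq2, 1 with the block and 1 in later-numbered pigs for CF against non-CF, to 1 (LOC100154873) with the block for CF against WT, and to 1 with DESeq2 for CF against HET. CHP1 newly passed without HET replicate 13 (edgeR's adjusted p = 0.0479) and SLC4A11 without CF replicate 2 (edgeR's adjusted p = 0.0385). The cause was not tested.

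For CF against non-CF, settings other than left-out libraries gave 0.00600 to 0.54 for SLC9A4, 0.00894 to 0.19 for PPP3CA and 0.21 to 0.58 for KCNK5. They gave -0.33 to -0.0118 for ATP1B1, -0.23 to -0.0283 for GPR4 and -0.32 to -0.0230 for CA9. The values were -0.27 to -0.0912 for SLC4A5, -0.24 to -0.0854 for ATP6V1A and -0.20 to -0.0740 for SLC9A2. Signs changed in earlier-numbered pigs for SLC4A4 (0.14), SLC9A3 (-0.0242), SLC9A8 (-0.0335), SLC4A3 (-0.16), CA3 (0.12) and LOC100152714 (0.0333), and in later-numbered pigs for CA12 (-0.0316). For CF against WT they changed for SLC9A2 with upper-quartile normalization (-0.0128) and limma-voom (-0.00120) and for SLC9A8 with the block (3.30e-04). For HET against WT they changed for LOC100154873 with upper-quartile normalization (-0.0122), the block (-0.0473) and EIF1AY (-0.00567). With a library left out, ranges that cross 0 were -0.00207 to 0.0860 for CA12 and -0.10 to 6.10e-05 for SLC4A4 (CF against non-CF), -0.0553 to 0.0803 for SLC9A2, -0.0286 to 0.13 for SLC4A4 and -0.0956 to 0.0435 for SLC9A8 (CF against WT), and -0.0469 to 0.0748 for LOC100154873 and -0.00682 to 0.0972 for SLC4A2 (HET against WT). Without a change of sign, a left-out library moved the CF against non-CF value by over 1.5 times for SLC9A2 (-0.20 to -0.0763, nearest 0 without CF replicate 6, farthest without CF replicate 2), SLC9A8 (0.00953 to 0.0814, nearest 0 without CF replicate 3, farthest without WT replicate 12), CA3 (-0.29 to -0.0395, nearest 0 without HET replicate 13, farthest without CF replicate 2), LOC100152714 (-0.0942 to -0.0339, nearest 0 without HET replicate 19, farthest without CF replicate 3), SLC9A4 (0.12 to 0.26, nearest 0 without CF replicate 3, farthest without HET replicate 14) and ATP6V0A1 (0.11 to 0.22, nearest 0 without CF replicate 9, farthest without WT replicate 23), none of which passed. The cause was not tested.

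For transcript shares, in percentage points, the SLC4A4 difference fell short of the limit in later-numbered pigs (3.85) and lay within 6.35 to 8.45 with a library left out. By unadjusted p, on which the block values were judged, SLC9A8 newly passed in earlier-numbered pigs (33.1, unadjusted exact p = 0.0268) and changed sign in later-numbered pigs (-20.2, unadjusted exact p = 0.294). SLC4A7 gave -0.142 with TPM shares, -0.118 in earlier-numbered pigs and -1.55 to 1.54 with a library left out, and SLC4A2 -3.01 to 0.0512. Left-out shares were judged on p adjusted over 6 genes; at an unadjusted permutation p under 0.05, CA12 also passed without WT replicate 17 (1.83, permutation p = 0.0487) and without HET replicate 21 (1.83, permutation p = 0.0491). The within-block and left-out shares were chosen after seeing the data. No paired analysis was possible because the groups share no pig numbers and the labels give no litters, so whether pigs of different genotypes were littermates was not analysed here. All 9 genes lay above the limit of 3 counts in every library.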
